A study of Mus musculus with 11 samples.

Results

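Lamp1, Lamp2, Ctsb, Ctsd, Ctsl, Ctss, Ctsz, Hexa, Grn and Npc2 are 10 of the 22377 genes in a table of gene expression in the mouse hippocampus. They encode proteins of the lysosome and were taken by symbol. The set was chosen by a measured value, the CPM of Lamp2, which was higher on the infarcted side in 5 of 5 pairs of libraries. This raised the question of whether other lysosomal genes kept such an excess. The side difference of Lamp2 therefore chose the set, and differences between sides are given as a description, with no test.

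Hippocampal RNA of C57BL/6N male mice was sequenced by CAGE (cap analysis of gene expression), a method that counts transcripts at their capped 5′ end. Photothrombosis (PT) closes vessels of the left parietal cortex by LED light (565 nm, 200 mW, 30 min, a circle of 3.5 mm) after a dose of the dye rose bengal (35 mg/kg). An anti-seizure drug, levetiracetam (LEV), was given in drinking water at 5 mg/mL. There was 1 library per side, infarcted or non-infarcted, of PT 7 d LEV, PT 7 d, PT 1 m LEV, PT 1 m and PT 2 m after LEV was withdrawn (for 2 weeks per the labels, for 1 week per the series text). The last group, of 1 library, was naive mice with neither PT nor LEV. The series text starts LEV 1 month after PT, and no source used here states when the PT 7 d LEV mice received it. Nor do they state whether a library came from young (8 to 10 weeks) or old (65 to 85 weeks) mice, how many animals it holds, or whether the sides of a pair share animals.

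Lysosomes are acidic compartments that break down material taken up by the cell or delivered by autophagy. Their membrane is lined with heavily glycosylated proteins, their lumen holds acid hydrolases, and a proton pump keeps the pH low. In the brain most of these genes are active in many cell types, and strongly so in microglia and macrophages, which clear debris after an infarct.

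The 10 genes fall into membrane proteins, proteases, and other lumenal proteins. Coordinates are those of GRCm38 in the GENCODE M21 annotation, in which all are protein-coding. Lamp1 (ENSMUSG00000031447.7, chromosome 8, 13159161 to 13175338) and Lamp2 (ENSMUSG00000016534.15, chromosome X, 38401357 to 38456454) encode the most abundant proteins of the lysosomal membrane, and an isoform of LAMP2 is the receptor of chaperone-mediated autophagy. The table is per gene, so isoforms are not separated. Ctsd (ENSMUSG00000007891.16, chromosome 7, 142375911 to 142388038) encodes the aspartic protease cathepsin D. Cysteine proteases are encoded by Ctsb (ENSMUSG00000021939.8, chromosome 14, 63122462 to 63145923), Ctsl (ENSMUSG00000021477.9, chromosome 13, 64359337 to 64370890), Ctss (ENSMUSG00000038642.10, chromosome 3, 95526786 to 95556403) and Ctsz (ENSMUSG00000016256.10, chromosome 2, 174427493 to 174439039). Among these, cathepsin S is typical of microglia and other antigen-presenting cells. Hexa (ENSMUSG00000025232.8, chromosome 9, 59539540 to 59565109) encodes the alpha subunit of hexosaminidase A, which degrades the ganglioside GM2. Grn (ENSMUSG00000034708.12, chromosome 11, 102430315 to 102437048) encodes progranulin, a secreted and lysosomal glycoprotein that is cut into granulins. Npc2 (ENSMUSG00000021242.9, chromosome 12, 84754562 to 84773152) encodes a cholesterol carrier of the lumen that works with the membrane protein NPC1.

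Since CAGE counts transcript starts, the promoters of 4 of these genes are given, from the RefSeq promoter table of GRCm38.p6, in which 9 of the 10 genes were matched. Each runs 5′ to 3′ on the gene's strand from 250 bases before the start to 50 after it, 300 bases in all. They show a pair of membrane protein genes that differ in this window, the gene with the widest side difference, and a gene typical of microglia. Capitals mark the E-box CACGTG, the centre of the site bound by TFEB, a transcription factor of lysosomal genes, and GAGGAAG, a core bound by the myeloid factor PU.1, which reads CTTCCTC on the other strand.
Lamp1: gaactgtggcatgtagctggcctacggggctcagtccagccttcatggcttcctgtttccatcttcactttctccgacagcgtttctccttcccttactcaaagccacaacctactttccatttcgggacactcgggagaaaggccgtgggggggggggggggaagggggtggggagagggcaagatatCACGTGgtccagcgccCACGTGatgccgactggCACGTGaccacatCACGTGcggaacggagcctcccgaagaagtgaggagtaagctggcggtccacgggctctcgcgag
Lamp2: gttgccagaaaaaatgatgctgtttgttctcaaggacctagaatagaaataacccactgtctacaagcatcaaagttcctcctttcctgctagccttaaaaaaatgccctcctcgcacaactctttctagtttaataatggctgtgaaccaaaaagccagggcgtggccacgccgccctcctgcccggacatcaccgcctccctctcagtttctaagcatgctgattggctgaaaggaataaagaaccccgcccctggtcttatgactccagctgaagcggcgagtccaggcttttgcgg
Ctsd: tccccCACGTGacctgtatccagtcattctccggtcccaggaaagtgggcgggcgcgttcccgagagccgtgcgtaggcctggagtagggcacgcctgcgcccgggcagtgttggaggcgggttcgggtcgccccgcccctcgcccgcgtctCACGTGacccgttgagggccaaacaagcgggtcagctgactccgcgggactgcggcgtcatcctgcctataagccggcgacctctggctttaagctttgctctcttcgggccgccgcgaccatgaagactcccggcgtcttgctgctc
Ctss: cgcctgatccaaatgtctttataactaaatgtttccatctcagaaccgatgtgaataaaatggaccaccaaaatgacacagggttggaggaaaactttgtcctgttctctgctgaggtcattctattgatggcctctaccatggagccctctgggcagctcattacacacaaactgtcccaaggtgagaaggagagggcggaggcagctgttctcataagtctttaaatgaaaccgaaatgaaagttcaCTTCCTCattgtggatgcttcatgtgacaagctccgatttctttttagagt

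The windows are chr8:13158911-13159210 (plus strand) for Lamp1, chrX:38456411-38456710 (minus strand) for Lamp2, chr7:142387778-142388077 (minus strand) for Ctsd and chr3:95526536-95526835 (plus strand) for Ctss. Searched on both strands, CACGTG was found 4 times in Lamp1, with first bases at -61, -45, -28 and -15 from the start, and 2 times in Ctsd, at -245 and -98. It was found 1 time in Ctsl, at -236, and in none of the other 6 matched promoters, Lamp2 included. Thus 3 of 9 promoters held it, beside 7.15% of the 32851 promoters in the table. The share was 9.54% of 14874 promoters of genes with a mean of at least 1 CPM. It was 22.1% of 131 promoters of the other lysosomal genes described further on. The longer TCACGTG, which contains CACGTG and so overlaps it, was found in Lamp1 and Ctsd. It was found in 3.77% of all promoters, 5.61% of those of genes with a mean of at least 1 CPM and 21.4% of those of other lysosomal genes. GAGGAAG was found only in Ctss among the 9, beginning 1 base before the start, beside 13.6% of all promoters. These are matches of letters in a window, and binding was not measured.

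Library totals were 13382623 to 22377376 reads, of which 93.01% to 96.08% lay in listed genes. Values are CPM, reads of a gene scaled to its library total, and each of the 10 genes passed the filter of a mean of at least 1 CPM, as did 16057 genes in all. The fewest reads of a member were 493, for Grn in PT 1 m infarcted (36.8 CPM, exact Poisson 95% interval 33.7 to 40.2), and the most were 9529, for Ctsd in PT 7 d infarcted (544.5 CPM, 533.6 to 555.5), so counting error was small. These intervals cover counting error only. All 9 markers of hippocampal regions were above 0 in every library, with sums of 569.6 to 665.3 CPM. The 7 d and 2 m libraries stood apart from the naive and 1 m libraries for 18.7% of tested genes, whose ranges did not overlap (1905 higher and 1093 lower in the 7 d and 2 m libraries). Ctsd and Ctsl were 2 such genes. The labels give no batch, so a run or batch along this line and the time after PT cannot be told apart. In such bulk samples, fewer cells of a type and less RNA per cell cannot be told apart either.

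Between the sides, the 10 genes stood higher on the infarcted side at PT 7 d, by a median log2 difference of 0.66 (all tested genes 0.04), and much less at 1 m, by 0.04 in PT 1 m (all genes 0.03). Differences are of log2(CPM + 1), which slightly understates them. The course of Lamp2 differed. Its difference was the lowest of the 10 genes in PT 7 d (0.31), and the highest in PT 1 m LEV (0.37) and in PT 2 m after withdrawal (0.52). In PT 1 m it was 0.09, below Ctss (0.40), Ctsl (0.21) and Lamp1 (0.17). Lamp2 was chosen for being higher on the infarcted side in each pair, so that excess in every pair restates the choice. In each of the 5 pairs higher on the infarcted side were Lamp2, Ctsd, Ctss and Ctsz, 4 of the 10 genes, while 5.26% of all tested genes met that rule and 2.71% were lower in each pair. With quantile normalization Ctsd and Ctsz each stood at -0.01 in PT 1 m, which left Lamp2 and Ctss. Because the rule of choice used this contrast, nothing is read from that count.

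**Figure D1:**
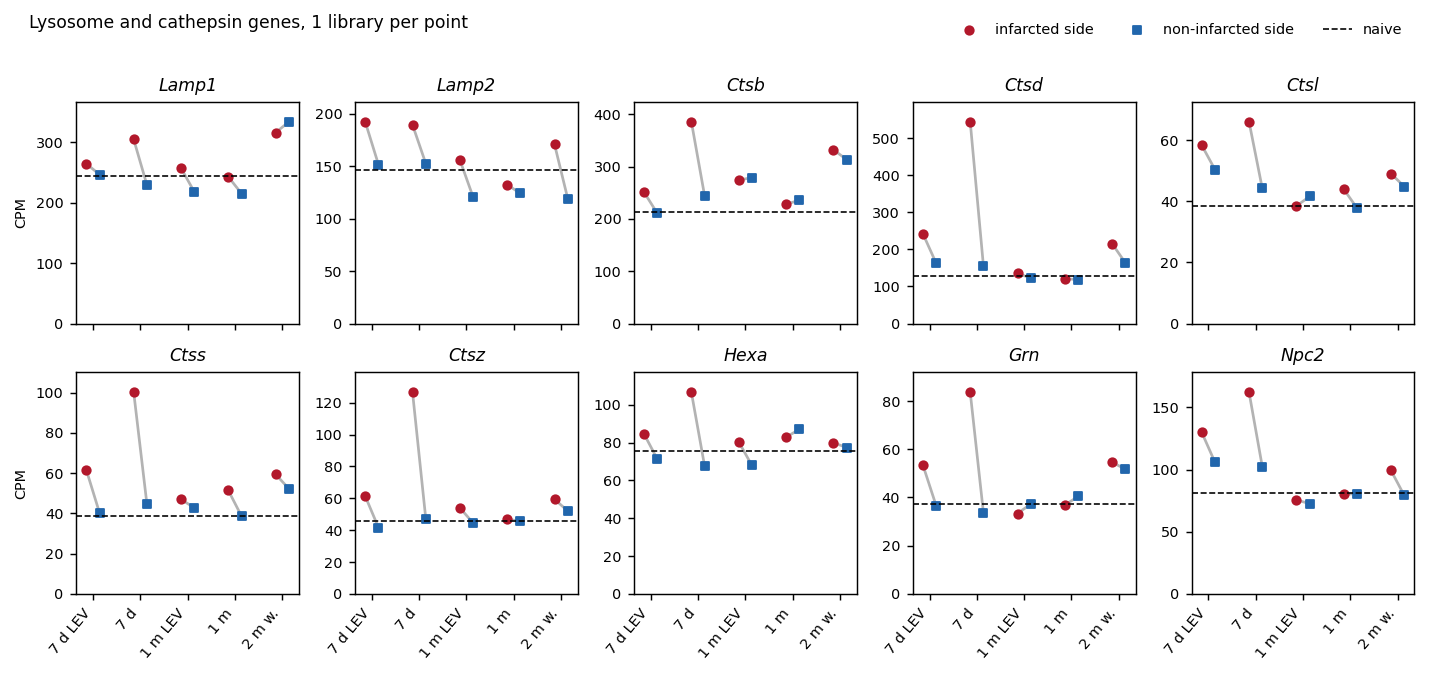
CPM of each gene (vertical axes, from 0) in the 5 PT conditions (horizontal axes; 2 m w. is PT 2 m after LEV withdrawal), with infarcted (red circles) and non-infarcted libraries (blue squares) joined by a line and naive as a dashed line. Most genes peak in PT 7 d infarcted, at 544.5 CPM for Ctsd, whereas Lamp2 lies at 192.5 CPM in PT 7 d LEV infarcted and 189.5 CPM in PT 7 d infarcted.

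Lamp2 stood at 192.5, 189.5, 156.1, 132.4 and 171.0 CPM on the infarcted side of PT 7 d LEV, PT 7 d, PT 1 m LEV, PT 1 m and PT 2 m, against 151.6, 152.6, 120.7, 124.1 and 119.1 CPM on the non-infarcted side, with 146.1 CPM in naive. The infarcted side was higher in each pair, though the sides overlapped when all libraries were pooled. Its mean was 168 ± 24.9 CPM over the infarcted sides, against 134 ± 17 CPM over the other sides (SD, n = 5). The log2 differences were 0.34, 0.31, 0.37, 0.09 and 0.52 (mean 0.33, SD 0.15), so the smallest was in PT 1 m. Lamp2 differed from all the other genes of the set in that PT 7 d did not exceed PT 7 d LEV on the infarcted side.

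Markers of the choroid plexus, the secretory tissue of the ventricles next to the hippocampus, also differed between the sides. The summed CPM of 8 such markers was 4817, 3413, 1782, 56.0 and 4023 on the infarcted side in the same order of conditions, against 3927, 3154, 103.0, 1431 and 1263 on the non-infarcted side (4166 in naive). The sum was thus higher on the infarcted side in each pair except PT 1 m. Single markers were less uniform, with 6, 4, 8, 0 and 8 of the 8 higher on the infarcted side and median log2 differences of 0.28, -0.01, 2.00, -1.48 and 1.52, so that in PT 7 d the sum and the median marker differed in sign. The sums of 6 markers of meningeal fibroblasts were 237.5, 114.8, 130.2, 101.1 and 246.3 CPM on the infarcted side, against 120.1, 119.5, 100.8, 149.5 and 162.3 CPM on the non-infarcted side (122.5 CPM in naive). None of these markers was at 0 in any library. Their part in the side difference of Lamp2 was not tested.

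Lamp1, the paralogous membrane protein, stood at 264.8, 305.1, 257.5, 243.0 and 316.4 CPM on the infarcted side, against 246.7, 229.4, 218.3, 215.2 and 334.3 CPM on the non-infarcted side. Its log2 differences were 0.10, 0.41, 0.24, 0.17 and -0.08, so the sides were reversed at 2 m, where Lamp2 had its widest difference. Both sides of the 2 m pair lay above every other Lamp1 value.

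Ctsd had the widest side difference of the set. It stood at 242.4, 544.5, 135.2, 121.2 and 215.3 CPM on the infarcted side, against 163.0, 154.7, 122.7, 118.3 and 163.4 CPM on the non-infarcted side, with 129.4 CPM in naive. The PT 7 d infarcted library was 3.50-fold above its other side (log2 1.81), followed by PT 7 d LEV (0.57) and 2 m (0.40). In PT 1 m LEV and PT 1 m the differences were 0.14 and 0.03.

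Ctsz, an exopeptidase, had side differences of 0.55, 1.41, 0.27, 0.04 and 0.19 over the same conditions, and PT 7 d infarcted stood at 126.6 CPM against 47.2 CPM on the non-infarcted side. Ctss had 0.60, 1.15, 0.13, 0.40 and 0.18, and PT 7 d infarcted stood at 100.2 CPM against 44.5 CPM on the non-infarcted side. In PT 1 m, Ctss stood at 51.4 CPM infarcted against 38.6 CPM non-infarcted, the highest difference of the set in that pair. Ctsb was higher on the infarcted side in 3 of 5 pairs, with 385.6 CPM against 243.9 CPM in PT 7 d (0.66) and 227.9 CPM against 235.6 CPM in PT 1 m (-0.05). Ctsl was higher in 4 of 5 pairs, with 0.57 in PT 7 d and -0.11 in PT 1 m LEV.

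Grn stood at 53.5, 83.6, 33.4, 36.8 and 54.7 CPM on the infarcted side, against 36.6, 33.6, 37.3, 40.5 and 51.6 CPM on the non-infarcted side. It was higher on the infarcted side at 7 d (0.53 with LEV, 1.29 without) and lower there at 1 m (-0.16 with LEV, -0.13 without). Npc2 had side differences of 0.29, 0.66, 0.06, -0.01 and 0.32, and stood at 162.2 CPM against 102.3 CPM in PT 7 d. Hexa had 0.24, 0.65, 0.24, -0.07 and 0.05, and stood at 106.7 CPM against 67.6 CPM in PT 7 d.

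By condition, a log2 difference of 0.5 or more was reached by 4 of the 10 genes in PT 7 d LEV (4.63% of all tested genes), 8 in PT 7 d (4.19%), 0 in PT 1 m LEV (2.06%), 0 in PT 1 m (1.62%) and 1, Lamp2, in PT 2 m (3.61%). Their summed level was 1400 CPM on the infarcted against 1118 CPM on the non-infarcted side in PT 7 d LEV and 2070 against 1120 CPM in PT 7 d. It was 1152 against 1047 CPM in PT 1 m LEV, 1067 against 1023 CPM in PT 1 m and 1437 against 1287 CPM in PT 2 m. The excess was thus widest in a single library, PT 7 d infarcted.

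**Figure D2:**
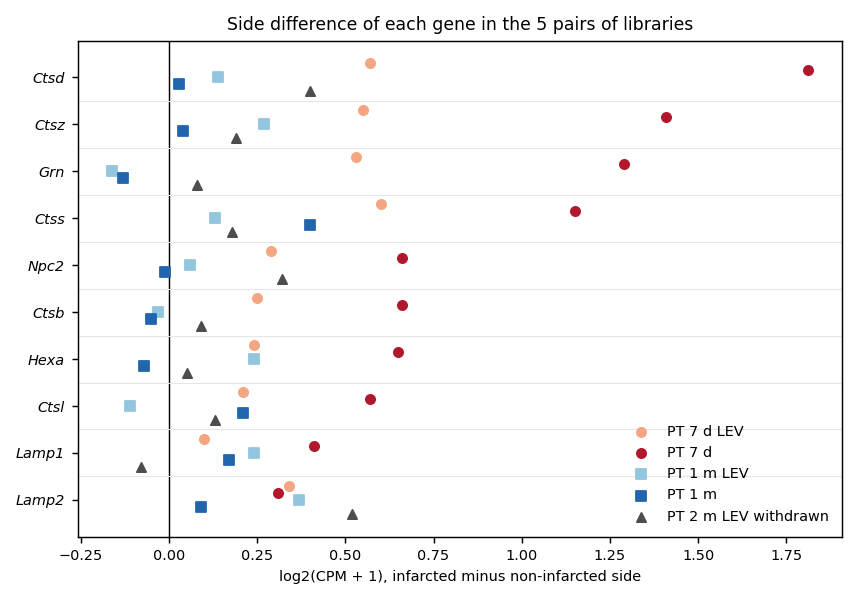
Difference between the infarcted and the non-infarcted side, in log2(CPM + 1), of each gene in the 5 pairs (1 point per pair, by colour and shape), with genes ordered by PT 7 d. Ctsd, Ctsz, Grn and Ctss lie above 1 in PT 7 d, the 1 m points lie between -0.16 (Grn) and 0.40 (Ctss), and Lamp2 reaches its highest value, 0.52, at 2 m.

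Markers of microglia and of other cell types also differed between the sides. The sum of 15 microglia markers was 589.8, 936.6, 517.4, 489.7 and 529.3 CPM on the infarcted side of PT 7 d LEV, PT 7 d, PT 1 m LEV, PT 1 m and PT 2 m, against 433.1, 410.6, 438.1, 447.4 and 491.8 CPM on the non-infarcted side (426.5 CPM in naive). The sum of 13 markers of activated phagocytes, which include the lysosomal genes Cd68 and Gpnmb, was 202.6, 519.9, 134.9, 127.2 and 138.7 CPM, against 115.7, 109.0, 103.2, 117.9 and 118.1 CPM (97.4 CPM in naive). All 15 microglia markers were above 0 in every library, and among the phagocyte markers Itgax was at 0 in 1 library, PT 1 m non-infarcted. The median side difference of microglia markers was 0.40, 0.63, 0.17, 0.11 and 0.12 in that order of conditions, beside 0.32, 0.66, 0.14, 0.04 and 0.15 for the 10 genes. Of 6 markers of blood monocytes and neutrophils, 5 were in the table, their sum stayed between 2.40 and 10.8 CPM, and Ccr2, Ly6c2 and Plac8 were at 0 in some libraries. In the same order, the median side difference of 9 astrocyte markers was 0.17, 0.27, -0.03, 0.20 and 0.20. That of 8 oligodendrocyte markers was 0.14, 0.29, -0.02, 0.07 and -0.15. For 6 endothelium markers it was 0.46, 0.09, -0.17, -0.28 and 0.17, and for 8 neuron markers -0.09, 0.01, -0.08, 0.04 and 0.02. The part of any of these cells in the side differences was not tested.

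**Figure D3:**
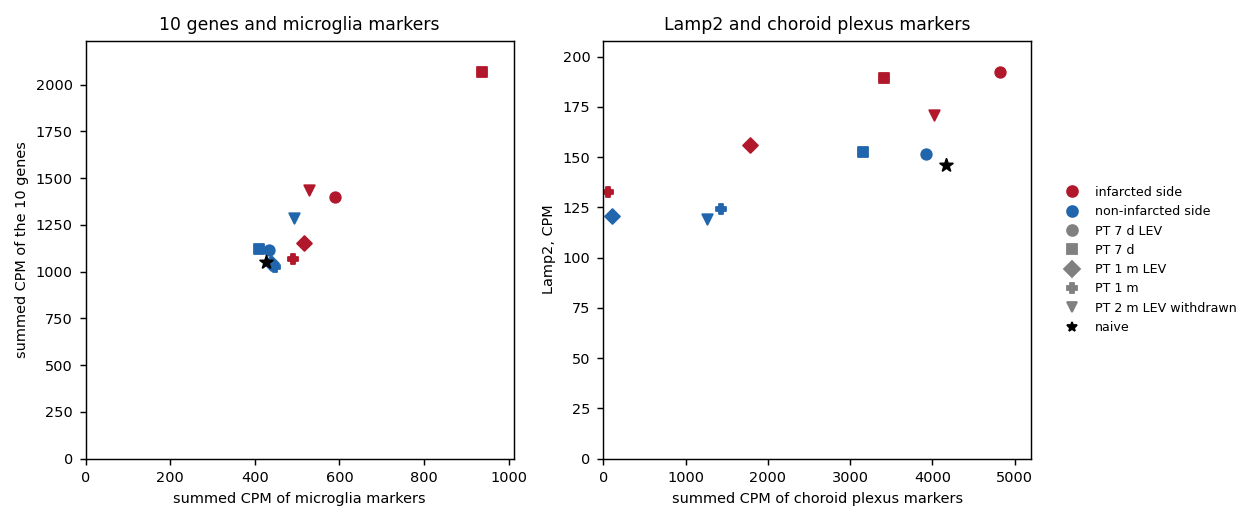
Left, summed CPM of the 10 genes against summed CPM of 15 microglia markers; right, Lamp2 CPM against summed CPM of 8 choroid plexus markers, 1 point per library, coloured by side and shaped by condition. PT 7 d infarcted is farthest to the upper right on the left (2070 against 936.6 CPM), and PT 1 m infarcted farthest to the left on the right (132.4 against 56.0 CPM).

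The excess on the infarcted side was then compared between 1 m and 7 d, as side differences of 4 conditions, for the 9 genes other than Lamp2. None of the 9 passed by limma with Benjamini-Hochberg adjustment over all genes, where 0.0% of the 16057 tested genes were called. At an unadjusted p under 0.05 there were 877 genes (5.46%), among them 7 of the 9 (all but Ctsl and Lamp1), and edgeR and DESeq2 called 0 genes each (0.0%). All 9 values lay below 0. Grn stood at -1.06 (SE 0.21, limma adjusted p = 0.607), Ctsd at -1.10 (SE 0.31, adjusted p = 0.835) and Ctsz at -0.82 (SE 0.23, adjusted p = 0.835). Ctss stood at -0.61, Ctsb at -0.49, Npc2 at -0.45, Hexa at -0.36, Ctsl at -0.34 and Lamp1 at -0.05. The size of the change turned on single pairs, which were left out after the data were seen. Over 13 alternatives, these fits included, Grn ranged from -1.44 to -0.68 and Ctsd from -1.72 to -0.48. Ctsz ranged from -1.25 to -0.39 and Lamp1 from -0.20 to 0.10. Without the PT 7 d LEV pair or the PT 7 d pair, a single pair stood for 7 d, so no calls are read from those fits.

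For LEV, the side differences also gave 0.0% of genes called by limma (817, or 5.09%, at an unadjusted p under 0.05; edgeR called 1 gene, 0.00623%, and DESeq2 18, 0.112%, none of them in the set). Over the 9 genes the change with LEV ranged from -0.57 for Ctsd (SE 0.44, limma adjusted p = 0.916) to -0.05 for Hexa. Without the PT 1 m pair, a single pair stood for no LEV, and the single 1 m pair was with LEV. No calls are therefore read from that fit. Over 13 alternatives, that fit included, Ctsd ranged from -1.45 to 0.32 and Ctsl from -0.52 to -0.17.

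Levels were next compared between 1 m and 7 d, a contrast on which the set was not chosen. Of the 10 genes, 5 were lower at 1 m and none higher, where limma called 15.8% of all tested genes, 10.1% as lower and 5.71% as higher. Over all genes that was 917 higher and 1620 lower, a split that became 862 and 833 with quantile normalization and 163 and 147 with trimmed-mean (TMM) scaling. The median change was -0.37 over the 10 genes and -0.06 over all genes. Both sides were averaged within each condition for this test, since they may share animals. The spread behind each SE and p of this test was mostly borrowed from other genes.

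Ctsd fell most, to 124 ± 7.50 CPM at 1 m, against 276 ± 183 CPM at 7 d (SD, n = 4 libraries each), a log2 change of -0.95 (SE 0.14, limma adjusted p = 5.99e-05). The 1 m libraries lay at 118.3 to 135.2 CPM and those of 7 d at 154.7 to 544.5 CPM, with no overlap. Npc2 fell to 77.2 ± 3.80 CPM at 1 m, against 125 ± 27.6 CPM at 7 d (-0.66, SE 0.12, limma adjusted p = 0.000507). Its libraries did not overlap either, at 72.6 to 80.7 CPM at 1 m and 102.3 to 162.2 CPM at 7 d. Ctsl fell by 0.41 on the log2 scale (limma adjusted p = 0.0209), with 37.8 to 44.0 CPM at 1 m and 44.2 to 66.1 CPM at 7 d. Grn fell by 0.38 (limma adjusted p = 0.0326), but it was lower in only 2 of 4 matched libraries. Lamp2 fell by 0.36 (limma adjusted p = 0.0419) to 133 ± 16.0 CPM at 1 m, against 172 ± 22.5 CPM at 7 d, and its libraries overlapped. Ranges without overlap were thus seen in 3 of the 10 genes. In the 5 lists of other lysosomal genes described further on, they were seen in 3 of 11, 8 of 39, 9 of 29, 6 of 19 and 5 of 20. The share over all tested genes is not given here for this split. The lack of overlap is therefore not read as a trait of the set.

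The other 5 genes did not pass. Ctsz stood at -0.39 (limma adjusted p = 0.061), Ctss at -0.36 (0.0573), Lamp1 at -0.16 (0.412), Ctsb at -0.07 (0.789) and Hexa at -0.04 (0.874; 0.02 with TMM scaling). Npc2 passed in 16 and Ctsd in 14 of 17 alternatives, Ctsl in 8, Grn in 6 and Lamp2 in 5; edgeR called 2 of the 10 genes (4.09% of all) and DESeq2 1 (5.13%). Without PT 7 d infarcted, Ctsd stood at -0.49, Npc2 at -0.50, Ctsl at -0.27, Lamp2 at -0.28 and Grn at -0.06. Ctsd and Npc2 alone of the 10 genes passed in that fit, and likewise without PT 7 d LEV infarcted. A fit without 1 library keeps only the other side of its condition, while the remaining conditions average both sides. Such fits are thus unbalanced by side, and part of a shift can be a side difference.

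Marker levels moved in the same contrast, in which limma called 7 of 15 microglia, 10 of 11 tested activated phagocyte and 8 of 8 choroid plexus markers as lower at 1 m. The mean microglia sum was 473.2 CPM at 1 m against 592.5 CPM at 7 d, and the choroid plexus sum 843.2 CPM against 3828 CPM. Of the other markers, limma called 3 of 9 for astrocytes and 1 of 8 for oligodendrocytes, all as lower. It called 4 of 6 for endothelium, 3 of them lower, and 4 of 8 for neurons, 1 of them lower. For hippocampal regions it called 2 of 9 and for meningeal fibroblasts 1 of 6, all as lower. None of 2 tested markers of blood monocytes and neutrophils was called. Over all tested genes limma called 15.8%, with 10.1% as lower. The part of any of these markers in the calls of the 5 genes was not tested.

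**Figure D4:**
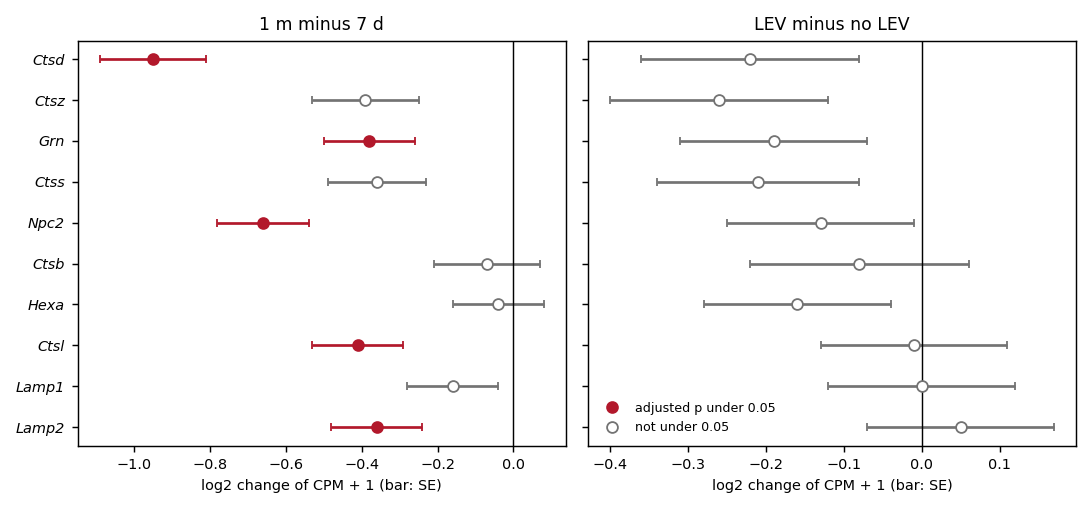
Log2 change of CPM + 1 of each gene, 1 m minus 7 d (left) and LEV minus no LEV (right), from limma on 4 condition means, with bars of 1 SE and filled red points where the adjusted p is under 0.05. Ctsd (-0.95), Npc2 (-0.66), Ctsl, Grn and Lamp2 are filled on the left, and none on the right.

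LEV was compared with no LEV over the same 4 conditions. None of the 10 genes was called, where limma called 3 genes or 0.0187% of all tested, and 980 (6.1%) at an unadjusted p under 0.05, none of them among the 10. EdgeR called 0 (0.0%) and DESeq2 1 gene of all (0.00623%). The values of 8 genes lay below 0, with a median of -0.15 beside -0.02 over all genes. Ctsz averaged 50.4 ± 9.0 CPM under LEV and 66.6 ± 40.0 CPM without it (log2 -0.26, SE 0.14, limma adjusted p = 0.823). Ctsd averaged 166 ± 53.8 CPM under LEV and 235 ± 207 CPM without it (SD, n = 4 libraries; log2 -0.22, SE 0.14, limma adjusted p = 0.848), and Lamp2 155 ± 29.4 CPM under LEV and 150 ± 29.1 CPM without it (log2 0.05, SE 0.12, 0.967). Without PT 7 d infarcted, Ctsd stood at 0.23 and Ctsz at 0.09, and none of the 10 genes lay below 0. That fit sets the non-infarcted side of PT 7 d alone against both sides of PT 7 d LEV. In PT 7 d LEV all 10 genes were higher on the infarcted side, so the shift is not read as a result about LEV.

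At the level of single libraries, with no replicate and a rule applied after the values were seen, 5 of the 10 genes were lower by a log2 of at least 0.5 in PT 7 d LEV infarcted than in PT 7 d infarcted (1.84% of all tested genes). These were Ctsd (-1.16), Ctsz (-1.03), Ctss (-0.69), Grn (-0.64) and Ctsb (-0.62), and the median over the 10 genes was -0.47. No member met that rule on the non-infarcted side at 7 d (1.27% of all genes), on the infarcted side at 1 m (6.19%) or on the non-infarcted side at 1 m (5.17%), where the medians were 0.06, 0.02 and -0.01. Lamp2 differed by 0.02 and -0.01 at 7 d and by 0.24 and -0.04 at 1 m, infarcted side before non-infarcted side. The library PT 7 d infarcted enters both this comparison and the side difference of PT 7 d.

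**Figure D5:**
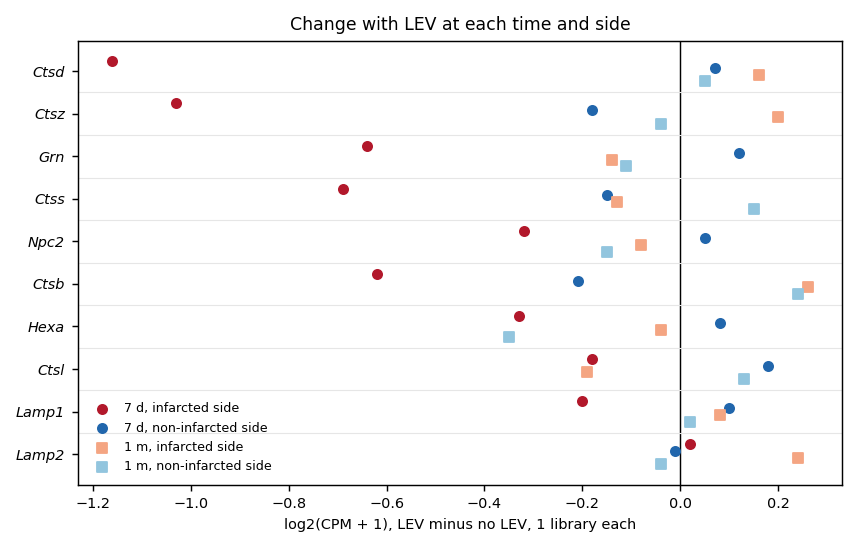
Difference in log2(CPM + 1) between the LEV library and the library without LEV of the same time and side, 1 point per comparison, for each gene. On the infarcted side at 7 d, 9 of 10 genes lie below 0, down to -1.16 for Ctsd; the other points lie within 0.4 of 0.

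Against the single naive library, no gene of the set was higher by a log2 of at least 0.5 on both sides of PT 7 d LEV (3.07% of all genes), PT 7 d (3.48%), PT 1 m LEV (2.3%) or PT 1 m (0.442%). In PT 2 m after withdrawal Ctsb was (8.74% of all genes), at 332.3 CPM infarcted and 313.2 CPM non-infarcted against 214.0 CPM in naive; with TMM scaling it was not. None was lower by 0.5 on both sides in any of these conditions (3.59%, 4.22%, 3.5%, 1.76% and 7.81% of all genes). On the infarcted side alone, a rule added after the data were seen, 5 of the 10 genes were higher than naive in PT 7 d LEV (8.48%) and 7 in PT 7 d (9.33%). That count was 0 in PT 1 m LEV (4.64%) and PT 1 m (2.01%) and 4 in PT 2 m (15%). On the non-infarcted side alone it was 0 in PT 7 d LEV (5.04%), PT 7 d (4.93%), PT 1 m LEV (3.41%) and PT 1 m (1.9%) and 1 in PT 2 m (11.3%). In PT 7 d infarcted the largest excesses over naive were those of Ctsd (2.06), Ctsz (1.45), Ctss (1.36) and Grn (1.15), whereas in PT 1 m infarcted these genes stood at -0.09, 0.03, 0.41 and -0.01. Lamp2 stood at 0.40, 0.37, 0.09, -0.14 and 0.23 on the infarcted side, against 0.05, 0.06, -0.27, -0.23 and -0.29 on the non-infarcted side. In the later conditions its side difference thus came with a non-infarcted side below naive.

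After LEV was withdrawn, at 2 m, no gene of the set was higher than in PT 1 m LEV by 0.5 on both sides (13% of all genes). The median change was 0.31 on the infarcted and 0.20 on the non-infarcted side, beside 0.13 and 0.09 over all genes. Grn stood at 0.70 and 0.46, Ctsd at 0.67 and 0.41 and Lamp1 at 0.30 and 0.61, infarcted side before non-infarcted side. Time and withdrawal cannot be told apart here.

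Other genes of the lysosome gave a wider frame. Of 126 further genes measured in 5 lists, 118 were tested. At 1 m against 7 d, limma called 13 of these 118, 3 higher and 10 lower, beside 15.8% of all tested genes (5.71% higher and 10.1% lower). Among 11 other proteases and cystatins, Ctsh, an aminopeptidase cathepsin, was lower (-0.39) and Cstb, an inhibitor of cathepsins, was higher (0.36). Among 39 other hydrolases and their activators only Sumf1, which activates sulfatases, was lower (-0.38). Among 29 other membrane proteins, Gpnmb, a glycoprotein of phagocytes, was lower (-1.40), as were the tetraspanin Cd63 (-0.68) and the scavenger receptor family member Cd68 (-0.54), while the transporters Abca2 (0.53) and Abcb9 (0.47) were higher. The highest Cd68 value at 7 d was 47.6 CPM, in PT 7 d infarcted, and the remaining 3 were 8.22 to 17.2 CPM; without that library its change was 0.06. Gpnmb likewise had 43.1 CPM in PT 7 d infarcted, with its remaining values at 7 d no higher than 7.39 CPM, and without PT 7 d infarcted its change was -0.66, which still passed. Ctsh stood at -0.14 without PT 7 d infarcted and at -0.16 without PT 7 d LEV infarcted, and passed in neither. As described above, these fits without 1 library are unbalanced by side.

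Among 19 subunits and partners of the proton pump, Atp6v0a2 (-0.61), Atp6v0a1 (-0.43) and Atp6v1e1 (-0.39) were lower. Among 20 sorting genes and transcription factors, the adaptor Gga3 (-0.51) and the mannose 6-phosphate receptor M6pr (-0.40), which carry hydrolases to the lysosome, were lower. Of 17 alternatives, Cd63 passed in 16, Abca2 and Atp6v0a2 in 15, Gpnmb and Gga3 in 13, Abcb9 and Atp6v0a1 in 10, Atp6v1e1 and M6pr in 9, Cd68 in 8, Cstb in 5, Ctsh in 4 and Sumf1 in 3. For LEV, limma called 0 of the 118 genes, as did edgeR and DESeq2, with 7 at an unadjusted p under 0.05. Closest by p were Ctsh (-0.24) and Tpp1 (-0.13), Man2b1 (-0.24) and Idua (-0.29), Cd68 (-0.38) and Gpnmb (-0.48), Tcirg1 (-0.45) and Atp6v0a2 (-0.28), and Gga3 (-0.31) and Vps29 (-0.32).

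The side difference of PT 7 d differed by list, with a median of 0.42 for proteases and cystatins, 0.25 for hydrolases, 0.08 for membrane proteins, 0.05 for the proton pump and 0.02 for sorting genes and transcription factors. In PT 1 m these medians were 0.05, -0.00, 0.04, -0.01 and 0.01. Higher on the infarcted side in 5 of 5 pairs were 4 of 11, 4 of 39, 3 of 29, 1 of 19 and 0 of 20 genes in that order of lists, beside 5.26% of all tested genes. They included the cathepsins Ctsh (mean difference 0.54) and Ctsc (0.40) and the asparagine endopeptidase Lgmn (0.27). They also included Gm2a, the activator protein of GM2 degradation (0.24). Gpnmb (0.98), Cd63 (0.36) and the cholesterol transporter Npc1 (0.13) were the membrane proteins, and Tcirg1 (0.43) the pump subunit.

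The change of the side difference between 1 m and 7 d passed for none of the 118 genes. The lowest p belonged to Ctsh (-0.75) and Ctsa (-0.48), Lipa (-0.51) and Gusb (-0.71), Cd68 (-1.64) and Laptm5 (-0.87), Tcirg1 (-0.42) and Atp6v0e (-0.15), and Mitf (-0.28) and Gga2 (0.16). For LEV, likewise with none passing, these were Lgmn (-0.27) and Tpp1 (-0.16), Pla2g15 (-0.27) and Acp2 (-0.28), Clcn7 (-0.30) and Lamp5 (-0.42), Atp6v1g1 (-0.21) and Atp6v1a (-0.18), and Lamtor4 (-0.21) and Lamtor5 (-0.17).

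Likeness was measured by Pearson's r over the 11 libraries, which share the scaling to library totals and include paired sides, among 12579 genes with a mean of at least 5 CPM. The mean profile of the 10 genes, each scaled to unit spread, was most like Ly86 (r = 0.982), Fcrls (0.981), Mpeg1 (0.977), Lyz2 (0.971) and Plek (0.964). The summed level of the 10 genes was 2070 CPM in PT 7 d infarcted and at most 1437 CPM in the other PT libraries. A single library can thus carry much of these r values, which are not given without it. Within the set, Ctsd (0.980), Ctss (0.966), Ctsz (0.953) and Grn (0.938) lay closest to that mean and Lamp1 (0.698) and Lamp2 (0.735) farthest. The mean includes each of these genes, which raises their r. Lamp2 itself was most like Sema3d (0.965), Gas6 (0.919), Mdfic (0.911), Mia (0.903) and Dse (0.898). Among the other 9 genes of the set, its r ranged from 0.302 for Ctsb and 0.357 for Lamp1 to 0.758 for Ctsd and 0.835 for Npc2. Sema3d, a semaphorin with a mean of 5.30 CPM, had side differences of 0.32, 0.35, 0.44, 0.16 and 0.54 in PT 7 d LEV, PT 7 d, PT 1 m LEV, PT 1 m and PT 2 m. Those of Ly86, a partner protein of a receptor of B cells and macrophages, were 0.46, 1.51, 0.23, 0.15 and 0.30.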

How the data were processed

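CAGE libraries from 11 hippocampal samples were analysed from the table of CPM values deposited by the authors. GRCm38, HISAT2 2.0.5, BWA 0.7.17 and DESeq2 1.20.0 are named in the submitters' processing notes; what each was used for is not given in the sources. Read counts recovered from the deposited values were whole (tolerance 0.0001) for 100.0% of values and served edgeR and DESeq2. Genes averaging at least 1 CPM were tested on log2(CPM + 1) with limma 3.58.1 in R 4.3.3 (lmFit, eBayes with trend; Benjamini-Hochberg over 16057 genes, threshold 0.05). LEV and time were fitted together on 4 condition means (1 residual and 21.6 prior degrees of freedom). Side differences were fitted on 4 pairs (2 residual degrees of freedom, with 7.0 prior ones for time and 7.1 for LEV). edgeR 4.0.16 (quasi-likelihood), DESeq2 1.42.0, another pseudocount or filter, TMM or quantile scaling, no trend, 8 libraries as independent and each library left out were alternatives. With 1 library per group, p-values rest only on the spread between conditions, which may be technical. With 1 residual against 21.6 prior degrees of freedom, limma borrowed most of that spread from other genes. The SE and p of a gene for LEV or time thus do not measure its own spread. Those of the side differences also rest mostly on borrowed spread. Named were all 10 genes, and from each further list those past the threshold, otherwise the 2 with the smallest p, and up to 3 higher in every pair. The genes, lists and tests were chosen with earlier results of these data known. Some genes of the further lists are not reported here by name. Gene models came from GENCODE M21. Figures were drawn with matplotlib 3.10.9.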

Additional observations from a re-analysis of the deposited data

Results flagged for a closer look

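Grn stood out because its side difference had one sign in both 7 d pairs and the opposite sign in both 1 m pairs. The change of that difference, 1 m against 7 d, was -1.06 on the log2 scale, and it did not pass (limma adjusted p = 0.607). Ctsb did the same, with a change of -0.49 (limma adjusted p = 0.835). Its reversal was slight, at -0.03 in PT 1 m LEV and -0.05 in PT 1 m. With quantile normalization these values were 0.0 and -0.1. For both Grn and Ctsb, the Poisson intervals of the sides overlapped in each 1 m pair. The share of all genes with such a change of sign is not given here, so it is not read as a trait of these genes. Ctsb also lay below 0 with LEV in both 7 d comparisons (-0.62 on the infarcted and -0.21 on the non-infarcted side) and above 0 in both 1 m comparisons (0.26 and 0.24). The LEV change at 1 m minus that at 7 d was 0.66 and was not tested.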

How the results depend on the processing

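With 5 of the 10 genes called at 1 m against 7 d, the count was 0 with no filter, 1 with TMM scaling or DESeq2, 2 with quantile normalization, no trend or edgeR, and 2 to 7 without single libraries. Of the other lysosomal genes 13 were called, against 0 with no filter, 1 with TMM scaling, 3 with edgeR or DESeq2, 7 with no trend, 8 with quantile normalization, 30 with 8 libraries as independent and 5 to 13 without single libraries. The number called over all 16057 tested genes moved as well. It was 2537 in the main fit, 310 with TMM scaling, 1695 with quantile normalization and 1816 with no trend. With edgeR it was 657, with DESeq2 824 and with 8 libraries as independent 4991. Without single libraries it was 1061 to 2392, and with no filter 24 of 22268 genes. Cd68 ranged from -1.14 to 0.06 without single libraries, Ctsb from -0.23 to 0.10 and Hexa from -0.20 to 0.13 (0.02 with TMM scaling). For LEV, none of the 10 genes was called under any alternative run, and the following changed sign. With quantile normalization Lamp1 stood at -0.03, and Ctsl at 0.02 with TMM scaling and 0.00 with DESeq2. Without single libraries Lamp1 ranged from -0.10 to 0.10, Lamp2 from -0.04 to 0.14, Ctsb from -0.24 to 0.08, Ctsd from -0.67 to 0.23, Ctsl from -0.15 to 0.13, Ctss from -0.49 to 0.08, Ctsz from -0.61 to 0.09, Hexa from -0.33 to 0.00, Grn from -0.51 to 0.13 and Npc2 from -0.29 to 0.04; without PT 7 d infarcted all 10 stood at or above 0. Fits without single libraries are unbalanced by side, since the condition of the left-out library keeps only its other side. The cause of these shifts was not tested. Without single pairs, the fits of the side differences had 1 pair in a group, so their calls are not read. For single genes, Lamp1 ranged from -0.20 to 0.10 over time, and with LEV Ctsb from -0.55 to 0.16, Ctsd from -1.45 to 0.32, Ctsz from -0.99 to 0.38, Hexa from -0.41 to 0.31, Grn from -1.10 to 0.32 and Npc2 from -0.48 to 0.19. Of the 10 genes, those higher on the infarcted side in every pair were 2 with quantile normalization and 4 to 6 without single pairs. Without a pair the rule asks for fewer pairs and is easier to meet. The share over all genes is not given for these settings, so nothing is read from these counts. Against naive at 2 m the count was 0 with TMM scaling, and for the infarcted side alone it was 5, 7 and 4 in PT 7 d LEV, PT 7 d and PT 2 m. The sides were paired by condition in the side differences; the labels give no replicate numbers, so no further block was fitted. Depth was not limiting for the 10 genes, whereas 1 library per group left each fit with few residual degrees of freedom.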

Other observations

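The ratio of Lamp2 to Lamp1, taken from their CPM within each library, was 0.727 in PT 7 d LEV infarcted, against 0.615 in PT 7 d LEV non-infarcted. It was 0.621 against 0.665 in PT 7 d, 0.606 against 0.553 in PT 1 m LEV and 0.545 against 0.577 in PT 1 m, infarcted side before non-infarcted side. In PT 2 m after withdrawal it was 0.540 against 0.356, the lowest ratio of the 11 libraries, and in naive 0.598. The 2 m non-infarcted library thus combined the highest Lamp1 (334.3 CPM) and the lowest Lamp2 (119.1 CPM) of all libraries.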
